A study of Homo sapiens with 16 samples.

Results

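The genes described here encode 8 transcription factors of the myeloid lineage: SPI1 (PU.1), CEBPA, CEBPB, CEBPD and CEBPE (C/EBP alpha, beta, delta and epsilon), MYB, GFI1 and KLF4. They were taken as all probe sets of the array whose platform annotation gives exactly 1 of these symbols, which gave 15 of 12626 probe sets. MYB had 8 of these and each other gene 1. Messenger RNA was read on 16 Affymetrix U95Av2 arrays in U937, a human monocytic cell line. In this line AML1-ETO, a leukaemia fusion protein of RUNX1 (AML1) with RUNX1T1 (ETO), is placed under a tetracycline-controlled promoter. Induced cells were collected at 12, 24, 48 and 72 h. Control cells came from 0, 24, 48 and 72 h. Each of these 8 groups has 2 arrays. All cells, controls included, carry the construct, and the labels do not say by which step it was switched on or whether the line is 1 clone. The labels mention controls of 12 h, but none of the 16 arrays is such a control. The comparisons ask how the level of each factor differed between induced and control cells at each hour.

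PU.1 is an ETS-family factor on which monocyte and macrophage development depends, and it acts in a dose-dependent way in blood precursors. The C/EBP proteins are leucine zipper factors: C/EBP alpha directs progenitors towards granulocytes, C/EBP beta serves macrophages and granulocyte production under stress, C/EBP delta is an inflammatory response factor and C/EBP epsilon acts late in granulocyte maturation. MYB maintains proliferating progenitors and declines as they mature, GFI1 is a zinc finger repressor needed for neutrophils, and KLF4 is a zinc finger factor of monocyte differentiation.

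The stretches just upstream of the transcription starts are shown for 3 genes that were lower in induced cells at 48 and 72 h (CEBPA, CEBPB, MYB) and for GFI1, which was not. The sequence reference used held entries for 6 of the members, and none for SPI1 or CEBPD. It held 2 entries for CEBPB and 3 for GFI1, of which 1 each is shown, and the matches given are those of the entry shown. Each is the 250 bases before the start from RefSeq, build GRCh38.p14, written 5′ to 3′ on the strand of the gene. They lie at chr19:33302535-33302784 (minus strand) for CEBPA, chr20:50190333-50190582 (plus strand) for CEBPB, chr6:135181058-135181307 (plus strand) for MYB and chr1:92486926-92487175 (minus strand) for GFI1. Capitals mark a TATA box (TATAAA), GC boxes (GGGCGG, or CCGCCC where it lies on the other strand) and an E2F-type site (TTTGGCGG).
CEBPA: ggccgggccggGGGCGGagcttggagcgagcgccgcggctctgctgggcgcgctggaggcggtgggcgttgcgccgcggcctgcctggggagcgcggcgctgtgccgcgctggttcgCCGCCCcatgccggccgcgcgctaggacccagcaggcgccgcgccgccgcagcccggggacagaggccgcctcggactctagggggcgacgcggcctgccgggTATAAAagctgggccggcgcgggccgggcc
CEBPB: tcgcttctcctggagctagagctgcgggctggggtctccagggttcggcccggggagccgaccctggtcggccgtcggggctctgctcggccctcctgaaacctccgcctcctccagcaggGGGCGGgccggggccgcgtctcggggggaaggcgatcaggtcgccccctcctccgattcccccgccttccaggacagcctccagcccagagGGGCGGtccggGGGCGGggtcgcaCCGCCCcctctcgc
MYB: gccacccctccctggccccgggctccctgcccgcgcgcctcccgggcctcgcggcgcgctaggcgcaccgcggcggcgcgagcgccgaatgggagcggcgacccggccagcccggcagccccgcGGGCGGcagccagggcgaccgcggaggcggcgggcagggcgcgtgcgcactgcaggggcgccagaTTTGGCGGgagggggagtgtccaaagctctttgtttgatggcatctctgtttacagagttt
GFI1: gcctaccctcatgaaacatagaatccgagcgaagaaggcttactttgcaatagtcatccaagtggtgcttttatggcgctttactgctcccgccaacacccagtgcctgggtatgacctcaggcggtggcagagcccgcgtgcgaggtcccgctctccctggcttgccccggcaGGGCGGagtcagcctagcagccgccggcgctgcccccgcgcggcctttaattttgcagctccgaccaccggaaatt
The CEBPA stretch has a TATA box 30 to 25 bases before the start and 2 GC boxes. CEBPB has 4 GC boxes, MYB has 1 GC box and an E2F-type site 61 to 54 bases before the start, and GFI1 has 1 GC box. GC content was 81.2% for CEBPA, 75.6% for both CEBPB and MYB, and 61.2% for GFI1, beside a median of 58.0% over 35116 promoters. Both strands were searched for the RUNX motifs TGTGGT and TGCGGT, the PU.1 motif GAGGAA and the C/EBP motif TTNNGCAA. None of these letters occurred in the 4 stretches shown. GAGGAA was found in the CEBPE stretch, 41 to 36 bases before the start, and in that of KLF4, 54 to 49 bases before it. Among all promoters of this length, 11.0% held TGTGGT, 5.84% TGCGGT, 23.6% GAGGAA, 9.05% TTNNGCAA, 10.7% TATAAA, 42.6% GGGCGG and 0.538% TTTGGCGG. The TATA, GC and E2F motifs were chosen after the sequences were seen. Such matches describe the letters of this window and are not sites of binding.

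The induced gene checked the labels. RUNX1T1, the ETO part of the fusion, has 4 probe sets, of which 35641_g_at alone passed the filter. The other 3 read between -455 and 352 over all 16 arrays and were not tested, so the check rests on 1 probe set. That probe set read at most 91.4 in the 8 control arrays. It passed the filter through induced arrays alone, so the check lies in its values and its p-values add nothing to it. It read 8649.6 and 3974 in induced cells at 48 h, and 10603 and 8355 at 72 h. Against same-hour controls, the rise was at least 43.2-fold at 48 h (adjusted p = 0.000391). At 72 h it was at least 69.4-fold (adjusted p = 7.01e-05). At 12 h the induced arrays read -116 and 86.1. At 24 h they read 1592 and -47.5, so that only replicate 1 stood above the controls. Values are the deposited linear intensities, which carry no unit and can be negative. A test used log2 values after everything under 135.609 (the 40th percentile of all values) was set to that floor, and a probe set was called at a limma p-value under 0.05 after Benjamini-Hochberg adjustment over all 7824 tested probe sets. A fold is "at least" where arrays of the lower side lay at the floor. Array medians lay between 220.3 and 337.5, and all arrays had the same mean. Between the arrays of 1 group, Pearson r over probe sets was 0.912 to 0.955. The number of arrays limits the precision, and no label says that replicates came from separate cultures, so p-values measure the spread between these arrays, which may be technical.

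The levels of markers of other cell types overlapped between induced and control arrays. The summed intensity of 16 lymphoid genes on the array ranged from 4987 to 6773 in induced and from 5206 to 7117 in control arrays, that of 11 erythroid and megakaryocyte genes from 3089 to 5036 and from 3384 to 5116, and that of 14 epithelial and fibroblast genes from 5647 to 9789 and from 6408 to 8853. Single genes of these lists read high on every array, with KRT8 at 2553 to 6813, ALAS2 at 1328 to 2588 and CD22 at 1281 to 2768. ITGA2B read 573 to 1270 and CD7 415.5 to 1076. CD3D, CD3G, MS4A1, PAX5, HBB and EPCAM did not pass the filter, the highest reading among them being 183. In the tests of the lists, 1 of 9 lymphoid genes was called in the average effect, lower, and none of 4 and 6 tested genes of the other lists. Over all 5582 tested genes outside the members, 19.8% were called higher and 13.8% lower. With arrays scaled to the same median or quantile normalized, each of these lists had 1 gene called lower. At 72 h 2 lymphoid genes were called lower, beside 802 of all 5582. At 48 h 1 epithelial or fibroblast gene was, beside 498. Of 14 tested U937 marker genes, 3 were called higher and 5 lower in the average. Of the U937 marker genes, PTPRC, ELANE, AZU1, CD4 and LYZ read 2086 or more on every array. ITGB2, FCER1G, CTSG and PRTN3 had lowest values of 1281, 640, 565 and 243. Several others were low: the monocyte gene CSF1R lay between -2385 and -322, and CD14 between -384 and 801. MPO lay between -432 and 534, ANPEP between -171 and 335, CD36 between -154 and 263, and CSF2RA between 69 and 283. CD68 and ITGAX had medians of -116 and 107, with highest values of 1372 and 1567. The sum over 17 monocytic marker genes ranged from 34265 to 59671 in induced and from 47330 to 57393 in control arrays. In such bulk samples, fewer cells of a type and less RNA per cell cannot be told apart.

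SPI1, CEBPA, CEBPB and MYB were lower in induced cells at 48 and 72 h, and none of the 8 genes had a probe set that was called higher. Of the 15 probe sets, 14 passed the filter on low values. Averaged over 24, 48 and 72 h, 9 of the 14 were called, all lower: SPI1, CEBPA, CEBPB and 6 of the 8 MYB probe sets. Among all tested probe sets 31.9% were called in this average, 13.4% lower and 18.5% higher. With each array scaled to the same median, the calls over all probe sets were 828 higher and 1321 lower, in place of 1451 higher and 1048 lower. That scaling lowered the median over all probe sets to log2 -0.09, in place of 0.10. The median log2 difference of the 14 member probe sets was -1.20, beside 0.10 over all tested. At 48 h 9 were lower, beside 8.68% of all probe sets called lower, and at 72 h 9 were lower, beside 13.9%. The member medians at 24, 48 and 72 h were log2 -0.43, -1.36 and -1.67, and those over all tested probe sets 0.04, 0.09 and 0.18. At 24 h none of the 14 was called by limma, and 0.0% of all probe sets were. With unadjusted p under 0.05 at 24 h there were 5 of 14 member probe sets and 397 of 7824 over all. The 5 were CEBPA and MYB 1474_s_at, 1476_s_at, 2042_s_at and 41854_at. Of the 14 member differences at 24 h, 12 lay below 0. MYB gave 8 of the 14 probe sets, 6 of them made from 1 sequence record. The member counts and medians are thus of probe sets, and not of independent genes.

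**Figure D1:**
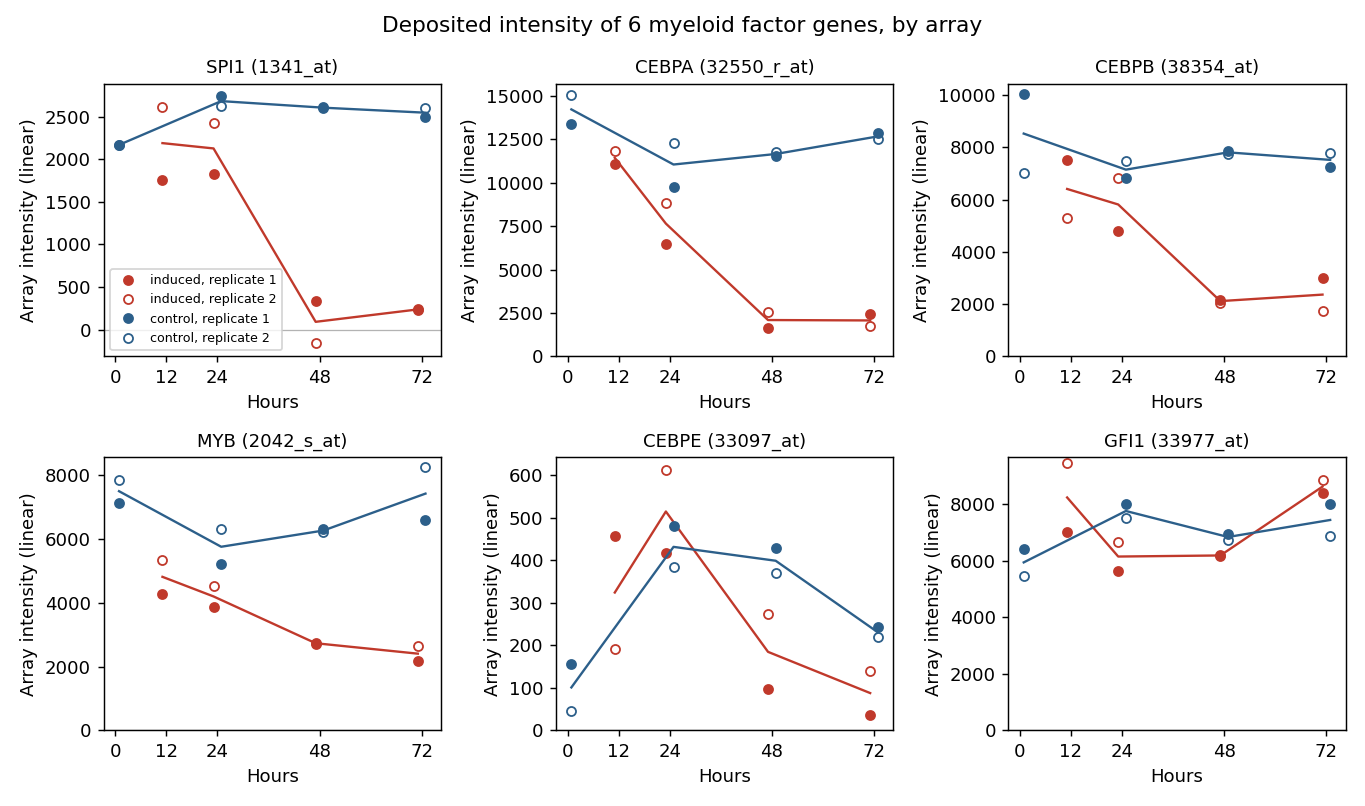
Deposited linear intensity (y axis) by hour (x axis, to scale, with induced and control points drawn slightly apart) for 6 of the factor genes. Each point is 1 array, filled for replicate 1 and open for replicate 2, and lines join group means, with induced cells in red and controls in blue. For SPI1, CEBPA, CEBPB and MYB both induced arrays at 48 and at 72 h sit under every control array, whereas the GFI1 points of both kinds lie between 5474 and 9462.

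SPI1, probe set 1341_at, read at most 341 in the 4 induced arrays of 48 and 72 h. It read 1762 and 2616 in induced cells at 12 h, 1825 and 2428 at 24 h, 341 and -158 at 48 h, and 231 and 243 at 72 h. The controls read 2170.5 and 2166 at 0 h, 2742 and 2622 at 24 h, 2602 and 2608 at 48 h, and 2496 and 2596 at 72 h. All 4 late induced arrays lay far under the 8 control arrays, of which the lowest was 2166, while the induced arrays at 12 and 24 h overlapped the controls of 0 h. At 48 h the level was at least 12.1-fold lower than in controls (log2 -3.60, SE 0.35, adjusted p = 2.25e-05). At 72 h it fell 10.7-fold (log2 -3.42, SE 0.35, adjusted p = 1.02e-05). At 24 h the difference did not pass (log2 -0.35, SE 0.35, adjusted p = 0.998), with a mean of 79.3% of the control mean. Ordered by group mean, the controls at 24, 48 and 72 h came first, and induced 12 h, control 0 h and induced 24 h followed with overlapping arrays. The induced groups at 72 and 48 h came last, and these overlapped each other.

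CEBPA, probe set 32550_r_at, was lower at 48 and 72 h, with overlapping levels at these hours. It read 11053 and 11812 in induced cells at 12 h, 6477 and 8821 at 24 h, 1647 and 2548 at 48 h, and 2418 and 1731 at 72 h. The controls read 13406 and 15034 at 0 h, 9782 and 12314 at 24 h, 11538 and 11769.9 at 48 h, and 12841 and 12491 at 72 h. Both induced arrays at 24 h lay under both 24 h controls, and the 4 later ones were lower still, with no overlap. The induced mean was 69.2% of the control mean at 24 h, 18.0% at 48 h and 16.4% at 72 h. At 48 h CEBPA fell 5.69-fold (log2 -2.51, SE 0.22, adjusted p = 1.15e-05) and at 72 h 6.19-fold (log2 -2.63, SE 0.22, adjusted p = 2.26e-06). The 24 h difference had an unadjusted p of 0.0302 and did not pass the adjustment (log2 -0.54, SE 0.22, adjusted p = 0.929). In the order of group means the induced cells at 24 h lay between the controls and the late induced groups, under every control array, and the 48 and 72 h induced groups overlapped.

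CEBPB, probe set 38354_at, was also lower at 48 and 72 h. It read 7503 and 5317 in induced cells at 12 h, 4795 and 6836 at 24 h, 2176 and 2062 at 48 h, and 3003 and 1733 at 72 h. The controls read 10025 and 7032 at 0 h, 6815 and 7482 at 24 h, 7868 and 7752 at 48 h, and 7241 and 7803 at 72 h. The induced arrays at 24 h overlapped their controls, and the 4 later ones lay at 3003 or less, under the lowest control of 6815. The fall was 3.69-fold at 48 h (log2 -1.88, SE 0.26, adjusted p = 0.000263) and 3.30-fold at 72 h (log2 -1.72, SE 0.26, adjusted p = 0.000241). Induced means were 81.4% of the control mean at 24 h, 27.1% at 48 h and 31.5% at 72 h. The 24 h difference did not pass (log2 -0.32, SE 0.26, adjusted p = 0.991).

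The other C/EBP genes were near the floor. CEBPE, probe set 33097_at, read 458 and 190.2 in induced cells at 12 h, 416 and 613 at 24 h, 96.3 and 273 at 48 h, and 35.8 and 139 at 72 h. The controls read 157 and 45 at 0 h, 479.9 and 383 at 24 h, 429 and 369 at 48 h, and 242 and 219 at 72 h. The induced arrays lay under their controls at 48 and at 72 h and overlapped them at 24 h. None of these differences passed, with log2 -1.05 at 48 h (SE 0.48, adjusted p = 0.156) and log2 -0.75 at 72 h (SE 0.48, adjusted p = 0.268). The controls of CEBPE themselves were lower at 0 h than at 24 or 48 h, with an unadjusted p of 0.0194 and an adjusted p of 0.36 for the change among controls. CEBPD, probe set 1052_s_at, ranged from -15.4 to 238 in induced and from -21.7 to 483 in control arrays. It passed the filter through replicate 2 of control 0 h (483) and replicate 1 of control 48 h (427) alone. Its average difference was log2 -0.13 (SE 0.34, adjusted p = 0.81), which is no bound.

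MYB was lower in induced cells at 48 and 72 h by 6 of its 8 probe sets. The probe set of highest mean, 2042_s_at, read 4288 and 5343 in induced cells at 12 h, 3861 and 4539 at 24 h, 2723 and 2740.4 at 48 h, and 2176 and 2632 at 72 h. The controls read 7140.0 and 7867 at 0 h, 5205 and 6315 at 24 h, 6318 and 6219 at 48 h, and 6595 and 8261 at 72 h. Induced arrays lay under the controls of the same hour at 24, 48 and 72 h, and those of 12 h lay under both 0 h controls. The level fell 2.29-fold at 48 h (log2 -1.20, SE 0.17, adjusted p = 0.000378) and 3.08-fold at 72 h (log2 -1.62, SE 0.17, adjusted p = 1.51e-05). The difference at 24 h was log2 -0.45 (SE 0.17, adjusted p = 0.922), and at 12 h against control 0 h it was log2 -0.65 (SE 0.17, adjusted p = 0.061). Ordered by group mean, the 0 and 72 h controls were highest, the 48 and 24 h controls and the induced cells of 12 and 24 h followed, and induced 48 h stood above induced 72 h without overlap.

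Of the 8 MYB probe sets, 6 (1471_at to 1476_s_at) were made from 1 sequence record, so they are not independent of one another. The average falls of the called ones were log2 -1.50 for 1472_g_at, -1.41 for 1473_s_at, -1.30 for 1474_s_at, -2.31 for 1475_s_at, -1.11 for 1476_s_at and -1.09 for 2042_s_at, with adjusted p-values from 3.74e-06 to 0.00298. Apart from 1475_s_at, they lay 2.29-fold to 3.65-fold under same-hour controls at 48 h and 2.87-fold to 4.58-fold under them at 72 h. From 48 to 72 h the control means of these probe sets rose. For 1474_s_at they were 3421 and 5304, with induced means of 1270 and 1449. The mean of 1475_s_at in induced cells was 16.4% of the control mean at 48 h and 14.9% at 72 h, and its replicates were far apart: 1310.2 and 34.8 in induced cells at 48 h, 1296 and 327 at 72 h, and 1363 and 4977 in controls at 0 h. Without replicate 2 of the induced cells at 48 h, its 48 h difference was log2 -1.64 and no longer passed, and the 48 h difference of 1472_g_at was log2 -1.04 and did not pass either. With control 0 h as the reference, the average difference of 1475_s_at was log2 -1.66 (adjusted p = 0.133). The 2 MYB probe sets without a call were the dim ones. Probe set 1471_at read 206 to 698 in induced and 275 to 802 in control arrays (average log2 -0.44, SE 0.35, adjusted p = 0.375), and 41854_at read 219 to 395 and 308 to 675 (average log2 -0.44, SE 0.24, adjusted p = 0.197).

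**Figure D2:**
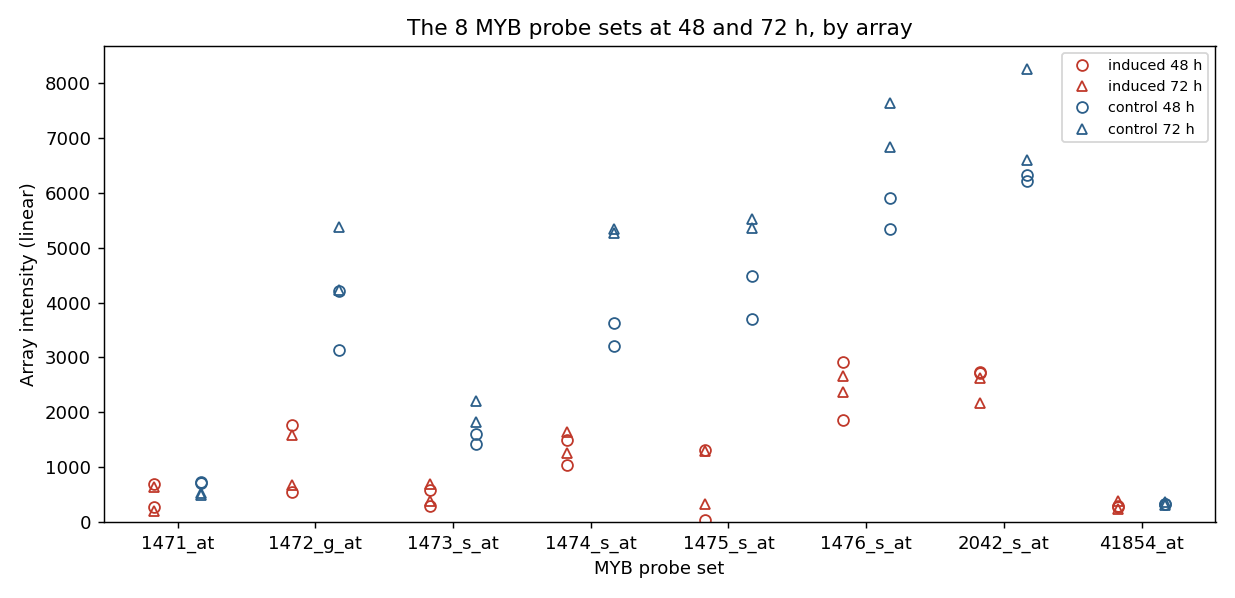
Deposited linear intensity of the 8 MYB probe sets, at 48 h (circles) and 72 h (triangles), with induced arrays (red) left of control arrays (blue). Each point is 1 array. In the 6 called probe sets all 4 induced arrays lie under all 4 controls, whereas in 1471_at and 41854_at the arrays overlap.

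GFI1, probe set 33977_at, had no difference that passed at any hour. It read 7021 and 9462 in induced cells at 12 h, 5645 and 6655 at 24 h, 6206 and 6171 at 48 h, and 8401 and 8852 at 72 h. The controls read 6412 and 5474 at 0 h, 7996 and 7530.0 at 24 h, 6954 and 6731 at 48 h, and 8022 and 6868 at 72 h. The induced arrays lay under both controls at 24 and 48 h and above both at 72 h. The values were log2 -0.34 at 24 h (SE 0.16, adjusted p = 0.982), log2 -0.14 at 48 h (SE 0.16, adjusted p = 0.605) and log2 0.22 at 72 h (SE 0.16, adjusted p = 0.34). The average was log2 -0.09 (SE 0.09, adjusted p = 0.501). The sign at 72 h turned with the scaling, at log2 -0.13 (adjusted p = 0.776) when each array was scaled to the same median. With control 0 h as the reference, the 72 h value was log2 0.54 (adjusted p = 0.0223). KLF4, probe set 36214_at, read -34 to 197 in induced and -198 to 242 in control arrays. It passed the filter on none of the 16 arrays and was not tested, so no direction is given for it.

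Exact permutation tests on the linear intensities, which need neither floor nor filter, covered all 15 probe sets. The labels were permuted within each hour over the 12 arrays of 24, 48 and 72 h in every arrangement, which makes 0.00926 the smallest possible two-sided p. Of 15 tests, 9 had an unadjusted p under 0.05, and these were the 9 probe sets called by limma, all lower. The limma average contrasts the same 12 arrays, so the 2 results are not separate evidence. Only member probe sets were tested in this way, so no share over all probe sets stands beside these counts. By limma, the unadjusted p of the average was under 0.05 for 9 of 14 member probe sets and for 3266 of 7824 over all. SPI1 averaged 819 ± 1045 in induced and 2611 ± 78.6 in control arrays (SD, n = 6 each, exact permutation p = 0.00926). CEBPA averaged 3940.5 ± 2988 and 11789 ± 1092 (SD, n = 6 each, exact permutation p = 0.00926), and CEBPB 3434 ± 1999 and 7494 ± 407 (SD, n = 6 each, exact permutation p = 0.0185). MYB 2042_s_at averaged 3112 ± 894 in induced and 6485 ± 993 in control arrays (SD, n = 6 each, exact permutation p = 0.00926). GFI1 averaged 6988 ± 1316 and 7350.1 ± 579 (SD, n = 6 each, exact permutation p = 0.472). With each array scaled to the same median, 11 tests had p under 0.05, the further ones being MYB 41854_at (exact permutation p = 0.00926) and GFI1 (exact permutation p = 0.0463), both lower in induced arrays.

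The size of the difference depended on the hour for SPI1, CEBPA and CEBPB, and for MYB in 1474_s_at and 2042_s_at only. An F test over the 24, 48 and 72 h differences called 5 of the 14 probe sets, beside 10.9% of all tested. Adjusted p-values were 0.00132 for SPI1, 0.00114 for CEBPA, 0.0217 for CEBPB, 0.0303 for MYB 1474_s_at and 0.0183 for MYB 2042_s_at. In the same F test the other MYB probe sets did not pass, with adjusted p-values from 0.133 to 0.896. When 1 array was left out in turn, between 2 and 7 probe sets were called, with 2 left (SPI1 and CEBPA) without replicate 2 of the induced cells at 24 h. Pairwise differences between hours were added after the values had been seen. From 24 to 48 h, 3 of the 14 probe sets were called lower, beside 3.08% of all tested. The difference changed by log2 -3.25 for SPI1 (SE 0.50, adjusted p = 0.00354), by -1.97 for CEBPA (SE 0.31, adjusted p = 0.00442) and by -1.56 for CEBPB (SE 0.37, adjusted p = 0.0282). For MYB 2042_s_at the same step was -0.74 (SE 0.25, adjusted p = 0.117). From 48 to 72 h none of the 14 was called by limma, beside 0.486% of all tested, and none had an unadjusted p under 0.05. The values for that step were log2 0.18 (SE 0.50) for SPI1, -0.12 (SE 0.31) for CEBPA, 0.16 (SE 0.37) for CEBPB and -0.43 (SE 0.25) for MYB 2042_s_at.

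**Figure D3:**
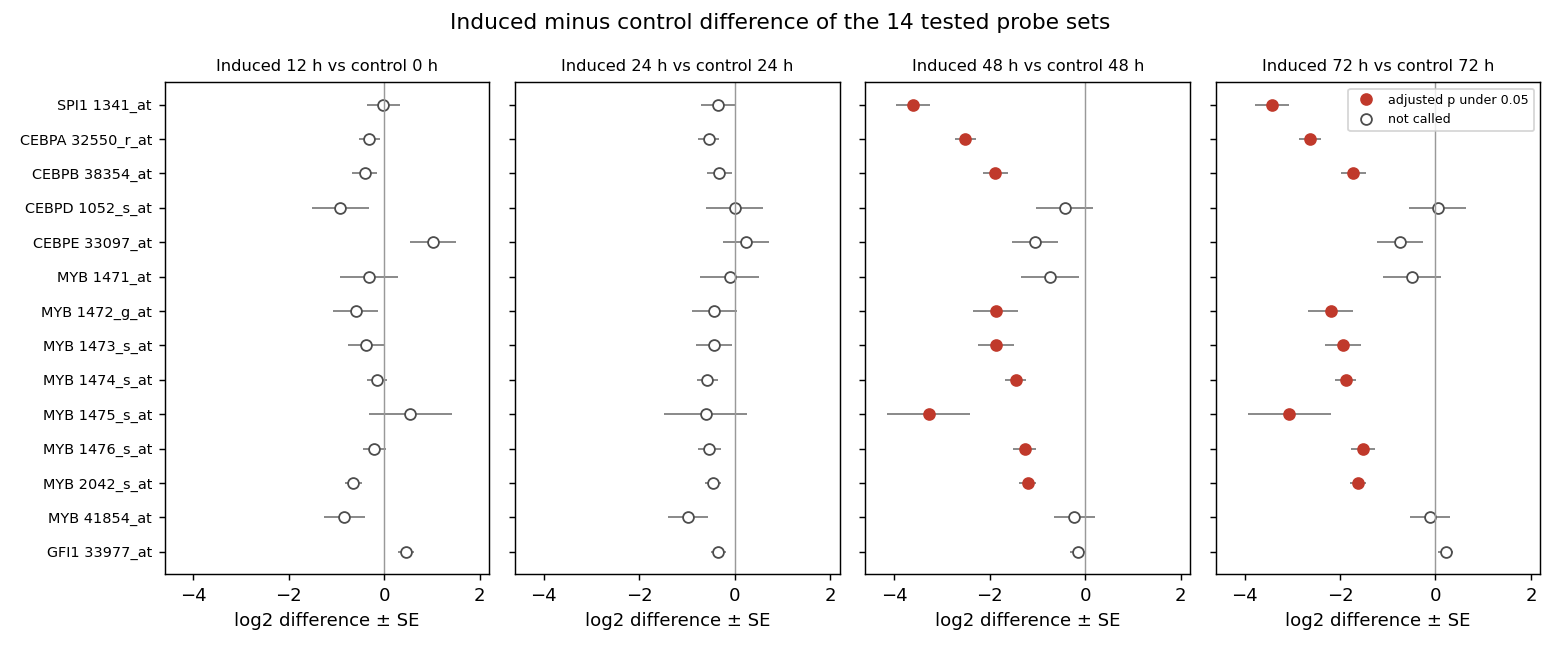
Log2 difference of induced minus control cells (x axis) with its standard error for the 14 tested probe sets (rows), at 12 h against control 0 h and at 24, 48 and 72 h against controls of the same hour (panels, left to right). Filled points are called, and they are SPI1, CEBPA, CEBPB and 6 MYB probe sets at 48 and 72 h, all at log2 -1.20 or lower, while none is filled at 12 or 24 h.

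Induced cells at 12 h could only be set against controls of 0 h, so induction and time in culture cannot be told apart there. None of the 14 probe sets was called by limma, beside 3.28% of all tested, and 2 had an unadjusted p under 0.05. The 257 calls behind that share were 42 with median scaling, 28 with the mean of the 0 and 24 h controls as the reference, 80 without replicate 2 of control 0 h, 109 without its replicate 1, and 150 and 148 without replicate 1 or 2 of induced 12 h. The 2 member probe sets with an unadjusted p under 0.05 were MYB 2042_s_at, given above, and GFI1. GFI1 was higher by log2 0.46 (SE 0.16, adjusted p = 0.128). SPI1 differed by log2 -0.01 (SE 0.35, adjusted p = 1.0), CEBPA by -0.31 (SE 0.22, adjusted p = 0.461) and CEBPB by -0.41 (SE 0.26, adjusted p = 0.405). Over the whole table this contrast had a median of log2 -0.15. Among the controls alone, the F test over 24, 48 and 72 h against 0 h called none of the 14 by limma, beside 0.192% of all tested. The 2 with an unadjusted p under 0.05 in that F test were CEBPE (0.0194) and MYB 1474_s_at (0.024).

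The replicates of the induced groups differed in RUNX1T1 (35641_g_at), and the member values of the same arrays are given beside it. At 12 h, with RUNX1T1 under the floor in both arrays, 10 of the 14 member probe sets were lower in replicate 1, beside 61.9% of all tested. At 24 h RUNX1T1 was higher in replicate 1, and 11 of the 14 member probe sets were lower in replicate 1 than in replicate 2, beside 55.3% of all tested probe sets. At 48 h RUNX1T1 was again higher in replicate 1, and 3 of the 14 were lower in it, beside 51.2% of all tested. At 72 h RUNX1T1 was higher in replicate 1 as well, and 7 of the 14 were lower in it, beside 46.3%. At 24 h SPI1, CEBPA and CEBPB read 1825, 6477 and 4795 in replicate 1, and 2428, 8821 and 6836 in replicate 2. These are single arrays and the difference between replicates was not tested.

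The genes whose 8 group means of log2 intensity were most like those of each factor were named by Pearson r, over 8 points that share arrays and scaling. For SPI1 these were DCTD (r = 0.997), IQGAP2 (0.997) and TYRO3 (0.996). For CEBPA they were ZFP36L2 (r = 0.996), CXCR4 (0.993) and GLUD1 (0.993), and for CEBPB KLF10 (0.995), TNFRSF1B (0.993) and TBL2 (0.991). MYB 2042_s_at had WARS1 (r = 0.995), XBP1 (0.992) and BCL2 (0.991). GFI1, without a called difference, had UPK1B (r = 0.977), HSF1 (0.917) and NDUFAF3 (0.914). The values for the dim genes were 0.972 for SFPQ with CEBPE and 0.963 for SNCB with CEBPD.

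Other factors of myeloid cells and their partners changed in both directions. Of 55 tested genes of that list, 15 were called higher and 18 lower in the average effect, with a median of log2 -0.04, beside 1104 higher and 769 lower of all 5582 tested genes outside the members, with a median of 0.10. IRF8, a factor of the monocyte lineage that partners with PU.1, read -102 and 329.5 in induced cells at 48 h against 6514 and 5729.9 in controls. Its average fall was at least 13.0-fold (log2 -3.70, SE 0.23, adjusted p = 1.8e-07). MYC, a proliferation factor, fell 4.24-fold, KLF10, a Krüppel-like repressor, at least 3.81-fold, and LYL1, a basic helix-loop-helix factor of blood precursors, 3.58-fold. CEBPG, the C/EBP family member that pairs with the others, fell 2.69-fold (log2 -1.43, SE 0.22, adjusted p = 0.000272); it was named after its value was seen. The rises were led by the acetyltransferase gene EP300 (2.96-fold), the AP-1 gene FOS (2.51-fold), the hypoxia factor HIF1A (2.41-fold) and TRIB1, which encodes an adaptor that targets C/EBP alpha for degradation. TRIB1 read 105 and 1024 in induced cells at 48 h and 681 and 1178 at 72 h, against values under 0 in the controls of these hours (adjusted p = 0.0439).

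Of 22 tested genes known as targets of PU.1, 5 were higher and 5 lower in the average (22.7% each), with a median of log2 -0.09, beside 19.8% higher and 13.8% lower of all 5582 genes. With arrays scaled to the same median, 3 were higher and 6 lower, beside 622 and 980 of all genes. The tetraspanin gene CD53 rose at least 11.5-fold, reading 3200.4 and 2439 in induced cells at 48 h against 105 and 146 in controls. ITGAX, the integrin CD11c, was called higher and read 557 and 730.3 in induced cells at 48 h against 25.5 and -471 in controls. The CD45 gene PTPRC rose 1.59-fold. The granulocyte receptor gene CSF3R rose 1.62-fold and was not called with arrays scaled to the same median (log2 0.48, adjusted p = 0.0537). The leukocyte actin-binding gene LSP1 fell 4.08-fold, the beta-2 integrin gene ITGB2 2.83-fold, the kinase gene FES at least 2.37-fold and the oxidase subunit gene NCF4 1.52-fold.

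Among 30 tested targets of the C/EBP factors, 8 were higher and 8 lower (26.7% each, beside 19.8% and 13.8% of all genes), with a median of log2 -0.09. With arrays scaled to the same median, 6 were higher and 8 lower. The granule protease genes CTSG and PRTN3 fell 4.36-fold and 2.87-fold, the interleukin 6 receptor gene IL6R at least 3.33-fold and the fucosyltransferase gene FUT4 2.28-fold. Among chemokine genes, CCL5 rose 2.92-fold and CXCL8 at least 4.11-fold. CDKN1A, an inhibitor of the cell cycle, was called higher and read 1584 and 2132 in induced cells at 48 h against 50.1 and -793 in controls. The chemokine gene CCL3 was called higher as well, with 1607 and 2119 in induced cells at 72 h against 32.3 and 305 in controls.

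Of 25 tested MYB targets, 10 were lower and 5 higher, with a median of log2 -0.03, beside 769 lower and 1104 higher of all 5582 genes. BCL2, which blocks apoptosis, fell 4.03-fold, the chemokine receptor gene CXCR4 3.85-fold, the cyclin gene CCNA1 3.14-fold and the adenosine deaminase gene ADA 2.17-fold. LMO2, a bridging protein of blood precursors, rose 2.22-fold, CD4 1.49-fold, the topoisomerase gene TOP1 1.47-fold and the coatomer gene COPA 1.42-fold. With arrays scaled to the same median, 11 were lower and 2 higher, beside 980 lower and 622 higher of all genes, and CD4, TOP1 and COPA were not called.

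GFI1 targets and partners had 7 higher and 4 lower of 21 tested (33.3% and 19.0%, beside 19.8% and 13.8% of all genes), with a median of log2 0.22. Of the higher ones 1 was RUNX1T1, the induced gene itself. The others named were PIAS3, a partner of GFI1 in STAT signalling (at least 2.69-fold), the cell cycle inhibitor gene CDKN1B (2.51-fold) and the homeobox gene MEIS1, which has no bound. The MEIS1 call was lost with median scaling (adjusted p = 0.0971) and with quantile normalization (adjusted p = 0.0652). The neutrophil elastase gene ELANE fell 1.57-fold, the deacetylase gene HDAC2 1.21-fold, and ID2, an inhibitor of helix-loop-helix factors, at least 3.44-fold. With arrays scaled to the same median, 4 were higher and 6 lower, beside 622 and 980 of all genes. KLF4 targets had 4 higher and 2 lower of 14 tested (28.6% and 14.3%, beside 19.8% and 13.8% of all genes), with a median of log2 -0.02. The activation antigen gene CD69 rose 2.56-fold, the cyclin gene CCND1 fell 1.91-fold and the polyamine enzyme gene ODC1 1.75-fold. Of the 44 genes named from the lists, all kept their direction when arrays were scaled to the same median or quantile normalized, and 39 and 43 were still called. The lists share genes, 10 between the factors and the GFI1 list and 8 between the C/EBP and KLF4 lists.

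**Figure D4:**
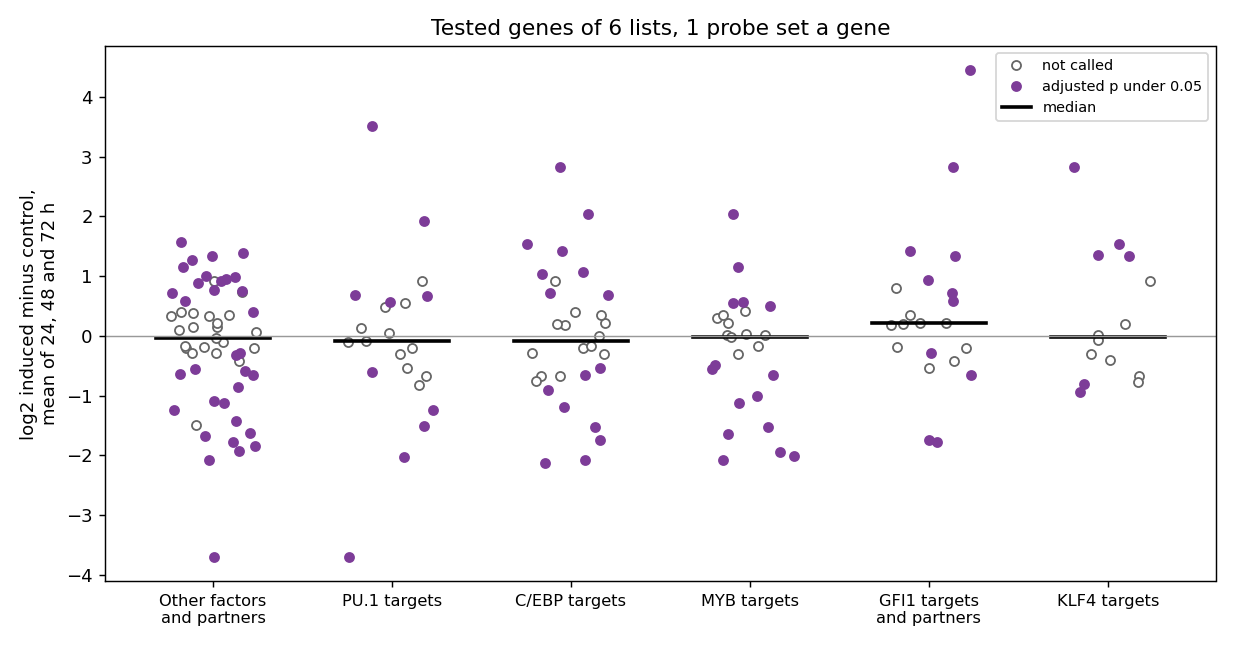
Log2 difference of induced minus control cells averaged over 24, 48 and 72 h (y axis) for each tested gene of 6 lists (x axis), 1 point a gene, with called genes filled and a bar at each median. Called genes lie on both sides of 0 in the lists of factors and of targets.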

How the data were processed

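The deposited intensity values are linear, with 1 value per probe set and array; what the authors did before deposit is, per the labels, a scale factor for each array, and the software that summarised the probes was not given in the sources used here. All arrays had a mean of 1370.9, and 22.6% to 33.9% of an array's values were below 0. The deposited intensity was raised to a floor of 135.609 where it lay under it, and then put on the log2 scale. Tests covered probe sets that read more than 292.742, the overall median, on 2 or more arrays, without the 67 control probe sets. The model, fitted to 16 arrays by limma 3.58.1 (R 4.3.3; lmFit, then eBayes with trend), had a mean for each group and 8 residual degrees of freedom, and tests were two-sided. The contrasts were induced minus control at 24, 48 and 72 h and their mean, induced 12 h minus control 0 h, and F tests between hours and among controls. The model was tested on simulated data. Exact permutation tests used Python 3.11.15. Symbols came from the platform annotation, which can be old, and sequences from RefSeq GRCh38.p14.

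The members, gene lists and tests were chosen with earlier results of these data known. From each list, with 1 probe set a gene (the one of highest mean), the text names up to 4 called genes in each direction with the largest average effect, not repeating a gene; the 3 genes most like each member were taken by Pearson r. Pairwise differences between hours and the list counts under other scalings were added after the data were seen. Alternatives changed the floor, log, scaling, filter, trend, block, reference and arrays.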

Additional observations from a re-analysis of the deposited data

Results flagged for a closer look

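The induced minus control difference varied between 24, 48 and 72 h in 5 member probe sets, by the limma F test over the 3 hours, and the cause was not tested. The adjusted p was 0.00132 for SPI1, with log2 differences of -0.35, -3.60 and -3.42 at the 3 hours. It was 0.00114 for CEBPA, with -0.54, -2.51 and -2.63. For CEBPB it was 0.0217, with -0.32, -1.88 and -1.72, and this call was lost without replicate 2 of the induced cells at 24 h (adjusted p = 0.138) or without replicate 1 or 2 of the 24 h controls (0.0795 and 0.0646). In MYB 1474_s_at the induced means were 1270 at 48 h and 1449 at 72 h, and the control means 3421 and 5304. In MYB 2042_s_at the induced means were 2731 and 2404, and the control means 6269 and 7428. The adjusted p for MYB was 0.0303 in 1474_s_at (log2 -0.57, -1.45 and -1.88) and 0.0183 in 2042_s_at (log2 -0.45, -1.20 and -1.62). Without replicate 2 of the induced cells at 24 h these became 0.122 and 0.102. The 2042_s_at call was also lost without replicate 1 of the 24 h controls (0.0695) or replicate 2 of the 72 h controls (0.0603). The 1474_s_at call was also lost without replicate 1 of induced 24 h, replicate 2 of induced 72 h, replicate 2 of control 24 h, replicate 1 of control 48 h, or either 72 h control, with adjusted p-values of 0.0517 to 0.126. In all, 3 member probe sets were called without either 24 h control or without replicate 2 of the 72 h controls. RUNX1T1, the induced gene, read 1592 and -47.5 in the 2 induced arrays at 24 h, and its part in these differences was not tested.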

How the results depend on the processing

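SPI1, CEBPA, CEBPB and MYB 1473_s_at, 1474_s_at, 1476_s_at and 2042_s_at kept their direction and call in the average effect and at 48 and 72 h under every alternative run. No direction of a called result turned. Of the single-gene results, 1325 kept their side of the threshold, 36 lost it and 7 passed it. At 24 h, 1 member probe set was called with control 0 h as the reference (MYB 2042_s_at, log2 -0.84), in place of 0. At 12 h, 1 was called with the stricter filter (5815 probe sets tested) and 1 with the replicate block, in place of 0, again MYB 2042_s_at. The difference between hours called 3 members with median centring, 3 without a filter and 2 without the mean-variance trend, in place of 5. Over all probe sets it called 526 of 7824, 707 of 12559 and 711 of 7824 in these settings, in place of 854 of 7824. Its member calls also varied when 1 array was left out. MYB 1472_g_at lost its 48 h call without replicate 2 of induced 48 h, without replicate 1 of control 48 h and without a filter, and its 72 h call without replicate 2 of induced 72 h (log2 -1.59). MYB 1475_s_at lost its 72 h call in 6 of 14 alternatives and its 48 h call in 5 of 14. MYB 41854_at was called in the average with quantile normalization (log2 -0.66, adjusted p = 0.0373). Over all probe sets, the calls of the contrasts used moved by more than 1.5 times under several settings: the average effect gave 1366 with control 0 h as the reference, in place of 2499; the 48 h effect 854 to 933 without any 1 of its 4 arrays, in place of 1499; and the difference between hours 526 with median centring and 533 and 463 without replicate 1 or 2 of induced 24 h, in place of 854. The 12 h contrast gave 28 to 169 in 8 settings, in place of 257, and the 24 h effect 84 with control 0 h as the reference, in place of 0. The change from 24 to 48 h gave 125 to 218 in 7 settings, in place of 382, and the change among controls 7 to 29 in 6 settings, in place of 15. The change from 48 to 72 h gave 38 calls in the main setting and 3 with median centring. It gave 85 with quantile normalization, 87 without a filter and 120 with the floor at the 50th percentile. Without 1 control array of 48 or 72 h it gave 4 to 10. Replicate numbers were not used to pair arrays: the replicate 1 minus 2 differences of groups correlated at -0.152 to 0.25, above 0.1 in 7 of 28 pairs of groups. The replicate block changed no other member call. The cause of these changes was not tested. Intensities at or near the floor (CEBPD, CEBPE, KLF4) limit what could be seen there. MYB 1471_at and 41854_at were dim, at 206 to 802 and 219 to 675, but no array of theirs lay at the floor.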
